A study of Homo sapiens with 19 samples.

Results

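Cytochrome P450 genes were taken as the rows of both expression tables whose symbol reads CYP, digits, 1 or 2 capital letters and digits, with nothing after. This name pattern matched 56 genes in each table of 34825 gene symbols. Another 45 symbols that start with CYP and digits, mostly pseudogenes, did not match and were left out. Testing required an average of 10 or more normalized counts across a table's libraries, which 33 of the 56 genes reached in the INO80 experiment and 32 in the drug experiment. The 30 genes tested in both experiments were joined by CYP2B6, CYP2D6 and CYP4F8 in the INO80 experiment alone and by CYP7A1 and CYP39A1 in the drug experiment alone, while 21 genes stayed under the minimum in both.

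All libraries came from HepG2 cells, a human hepatoblastoma-derived line that the labels describe as liver cancer, and each experiment was deposited as its own table. In the INO80 experiment, cells were transfected for 72 h with control siRNA, called NTG, or with 1 of 2 siRNAs targeting INO80, the ATPase of the INO80 chromatin remodeling complex, each at 50 nM (NTG, siINO80#1 and siINO80#2, 3 libraries each, A to C). In the drug experiment, cells were kept from 3 days before transfection in 1 μM EPZ-6438, an inhibitor of the histone methyltransferase EZH2, or in DMSO, and were then transfected in the same way with NTG or with siRNA targeting MCRS1, another subunit of the complex. This gave DMSO with NTG (2 libraries, table columns 1 and 3), DMSO with siMCRS1 (3, columns 1 to 3), EPZ-6438 with NTG (3, columns 1 to 3) and EPZ-6438 with siMCRS1 (2, columns A and B). MCRS1 was targeted with a single siRNA, and the transfected cells were harvested as a whole. No source says that replicates were separate cultures, so p-values measure only the spread between these libraries. Values are given in the order of these letters or columns.

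Cytochrome P450 enzymes are heme proteins of the endoplasmic reticulum or the mitochondrion that insert an oxygen atom into small molecules, with electrons passed on by cytochrome P450 reductase or by the ferredoxin chain. The liver is the main site of the members that clear drugs and other foreign compounds and of those that turn cholesterol into bile acids. Other members make steroid hormones in gonads, adrenals and placenta, oxidize fatty acids, or activate and degrade vitamin D and retinoic acid. Many are controlled by nuclear receptors and by liver transcription factors, and cultured liver lines are known to keep low levels of the drug-metabolizing members of adult liver.

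Library totals were 17093574 to 25369547 reads for the INO80 siRNAs and their controls and 26038505 to 47397233 for the drug experiment, so that 3 reads, taken as the floor, were worth 2.30 to 3.58 and 2.13 to 4.30 normalized counts. INO80 fell by 1.05 (standard error 0.08, limma adjusted p = 5.1e-06) with siINO80#1 and by 1.46 (standard error 0.08, limma adjusted p = 3.6e-07) with siINO80#2, on the log2 scale used throughout. MCRS1 fell by 3.66 (standard error 0.23, limma adjusted p = 5.9e-06) with its siRNA in DMSO, and in EPZ-6438 it fell by 3.66 (standard error 0.23, limma adjusted p = 3.5e-06). Library C of siINO80#2 stood apart from its replicates, with a chi-square per degree of freedom of 84.3 and 121 against 9.45 to 18.8 for the other replicate pairs of that table. Of 8 hepatocyte markers all were tested and expressed, with albumin at 109073 to 280466 normalized counts. Of 8 markers of other liver cells 5 were tested in each experiment, and the stromal marker LUM stayed between 0 and 8.62. Their summed level, which was mostly the lysozyme gene LYZ, ran from 37206 to 41230 in NTG, from 39505 to 45597 in siINO80#1 and from 49544 to 56518 in siINO80#2, and from 37972 to 69664 over the groups of the drug experiment.

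Levels differed widely between genes in control cells when counts were divided by the length of the MANE transcript (the reference transcript chosen by RefSeq and GENCODE). The highest was CYP51A1, the lanosterol demethylase of cholesterol synthesis, at 2516 ± 183 normalized counts per kb in NTG (SD, n = 3) and 3425 ± 709 in DMSO with NTG (SD, n = 2). CYP27A1, the mitochondrial sterol hydroxylase, followed at 1557 ± 107 per kb in NTG (SD, n = 3). CYP1A1, CYP3A5 and CYP24A1 came next in NTG and lay within their spread of each other, at 289 ± 39.2, 263 ± 19.8 and 254 ± 49.7 per kb (SD, n = 3 each). In DMSO with NTG the order differed, with these genes at 686 ± 79.7, 184 ± 73.9 and 547 ± 180 per kb (SD, n = 2 each). CYP4F12 and CYP2W1 there had higher means than CYP3A5, at 229 ± 10.1 and 219 ± 5.32 (SD, n = 2 each). CYP3A4, the leading drug oxidase of adult liver, reached 3.71 ± 0.316 per kb in NTG (SD, n = 3), and CYP2E1, which oxidizes ethanol, 9.38 ± 1.31 (SD, n = 3). Together the 56 genes took 0.0867% to 0.0963% of the reads in NTG libraries, 0.0721% to 0.0751% in siINO80#1 and 0.0519% to 0.0665% in siINO80#2, so that every siINO80 library lay below every NTG library. Most of these reads in NTG came from CYP51A1 and CYP27A1, so the share weighs these genes above the rest of the family. In the drug experiment the share was 0.0698% and 0.0763% in DMSO with NTG, 0.0639% to 0.0706% in DMSO with siMCRS1, 0.0812% to 0.0907% in EPZ-6438 with NTG, and 0.0770% and 0.0778% in EPZ-6438 with siMCRS1. In bulk libraries, fewer cells of a kind and less RNA per cell cannot be told apart.

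**Figure D1:**
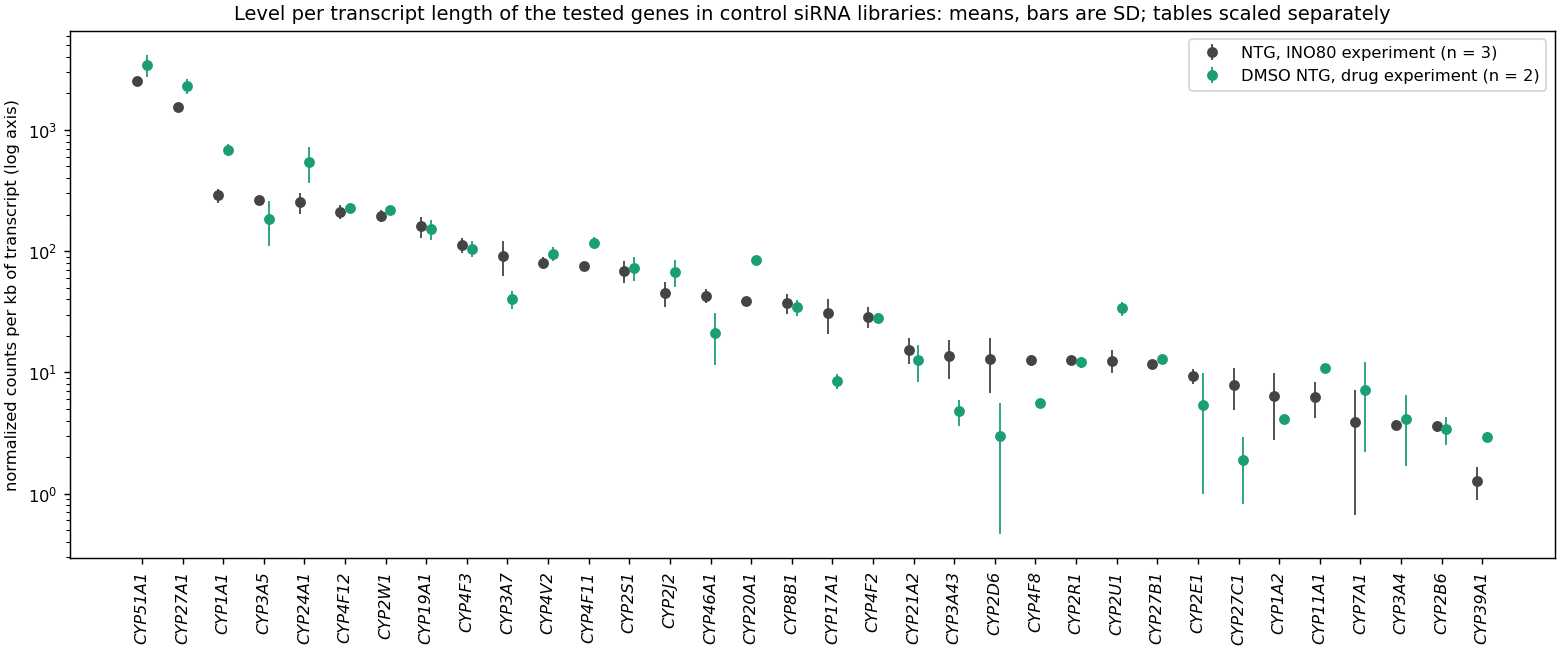
Mean level of each tested gene with a transcript length in control siRNA libraries, in normalized counts per kb of transcript on a log axis, with SD bars (dark grey, NTG of the INO80 experiment, n = 3; green, DMSO with NTG of the drug experiment, n = 2). CYP51A1 and CYP27A1 lie highest in both, while CYP3A4, CYP2B6 and CYP39A1 are at the low end of the NTG order.

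Knockdown of INO80 lowered more cytochrome P450 genes than it raised. With siINO80#1, 13 of the 33 tested genes fell (39.4%, against 20.8% of the 14034 genes tested) and 2 rose (6.06%, against 20.7%). With siINO80#2, 14 fell (42.4%, against 28.4% of all genes tested) and 3 rose (9.09%, against 26.6%). The median log2 fold change over the 33 genes was -0.37 for siINO80#1 and -0.31 for siINO80#2, where the median of all genes tested was 0.00. The median for siINO80#2 rested on single libraries, being -0.02 without siINO80#2 library C, -0.06 without NTG library C and -0.13 without NTG library A, and -0.16 in edgeR. It also turned on the filter, at 0.02 over 45 genes with a minimum mean of 1 and -0.73 over 18 genes with a minimum of 50. Estimates were below 0 for 23 of the 33 genes with siINO80#1 and for 18 with siINO80#2. CYP19A1 and CYP24A1 stood at the ends of both lists, with the largest decrease and the largest increase among genes with a mean of at least 50. A gene was called where limma on log2(normalized counts + 1), with Benjamini-Hochberg adjustment over all genes tested, gave an adjusted p under 0.05, and fold changes on this scale understate those of genes with few counts. Without siINO80#2 library C, 14 of 32 genes fell and 2 rose, CYP3A5 being lost. Of the markers of other liver cells, LYZ and PECAM1 rose by 0.44 and 0.49 with siINO80#2, and 4 of 8 hepatocyte markers fell; their part in the results was not tested.

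Both INO80 siRNAs lowered 12 of 33 genes (against 17.2% of all genes tested), namely CYP19A1, CYP17A1, CYP8B1, CYP27A1, CYP4F2, CYP4F3, CYP4F11, CYP4F12, CYP4V2, CYP3A7, CYP2W1 and CYP20A1, and both raised CYP24A1 and CYP2S1 (17.4% of all genes). The comparisons share the NTG libraries. CYP1A1 was called lower with siINO80#1 alone, CYP51A1 and CYP3A43 lower with siINO80#2 alone, and CYP3A5 higher with siINO80#2 alone. Directly compared, the siRNAs differed at 5 of 33 genes, with CYP27A1, CYP4F3, CYP19A1 and CYP2W1 lower in siINO80#2 (12.1%, against 12.6% of all genes tested) and CYP1A1 higher (3.03%, against 9.48%). CYP27A1 and CYP4F3 were called in this direct comparison under all 20 alternatives, while CYP19A1 was lost under 11 of them, and CYP2W1 and CYP1A1 under 6 each.

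Knockdown of MCRS1 gave a list of the same shape. In DMSO, 12 of 32 tested genes fell (37.5%, against 24.6% of the 14312 genes tested) and CYP24A1 rose (3.12%, against 23.1%). In EPZ-6438, 12 fell (37.5%, against 26.9%) and CYP24A1 rose (3.12%, against 26.8%). The median over the 32 genes was -0.62 in DMSO and -0.48 in EPZ-6438, beside 0.00 and 0.01 for all genes tested. In both treatments 9 genes fell (22.0% of all genes did) and 1 rose (20.8% of all genes), the former being CYP19A1, CYP17A1, CYP8B1, CYP4F2, CYP4F3, CYP4F11, CYP4F12, CYP4V2 and CYP2W1, all of which are also among the 12 genes that both INO80 siRNAs lowered. CYP1A1, CYP7A1 and CYP20A1 were called lower in DMSO alone, and CYP3A7, CYP3A43 and CYP11A1 in EPZ-6438 alone, but the difference between treatments was not past the threshold for any cytochrome P450 gene. With the libraries rescaled to equal totals, the median of all genes moved by -0.23 with siMCRS1 in either treatment and by -0.11 with siINO80#2. All genes then split into 1893 higher and 5106 lower with siMCRS1 in DMSO, in place of 3307 and 3523, and into 2292 and 5331 in EPZ-6438, in place of 3839 and 3847. Of the cytochrome P450 genes, 16 were then lower and 1 higher in DMSO, and 14 and 1 in EPZ-6438. The count in DMSO rests on few control libraries. Without library 1 of DMSO with NTG, a lone control library is left, assumed to vary like the other groups. Fewer genes were then called, among all genes tested as well as in this family. The median was then -0.72 over 31 genes, beside 0.0008 for all genes tested.

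**Figure D2:**
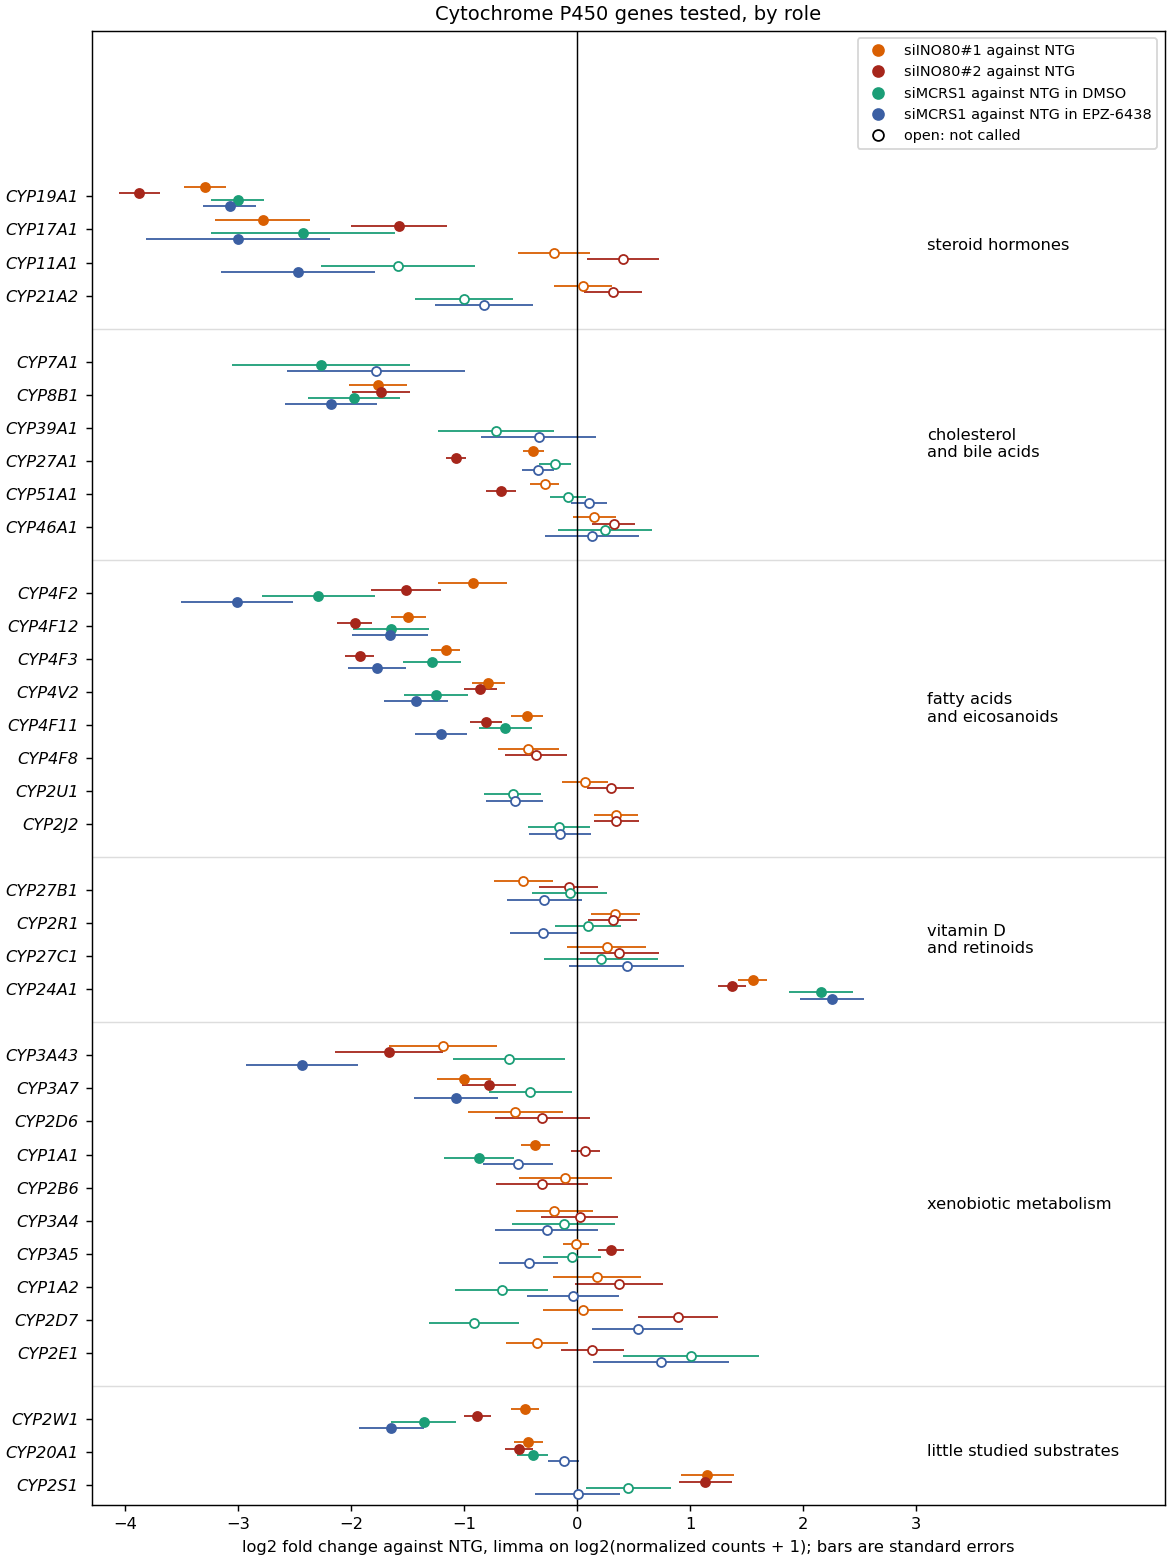
Log2 fold change against NTG of each tested cytochrome P450 gene in the 4 knockdown comparisons, with standard errors, grouped by role. Filled points were called at an adjusted p under 0.05 and open points were not. Filled points lie left of 0 for most CYP4F genes, CYP19A1, CYP17A1 and CYP8B1, and right of 0 for CYP24A1 in all 4 comparisons and for CYP2S1 with the INO80 siRNAs.

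The steroid hormone genes held the largest decrease. CYP19A1, aromatase, which converts androgens into estrogens, had 654, 593 and 868 normalized counts in NTG, 71.5, 57.5 and 83.1 in siINO80#1 and 44.9, 42.1 and 52.9 in siINO80#2. No siINO80 library overlapped NTG, and every siINO80#2 library was below every siINO80#1 library. CYP19A1 fell by 3.30 (standard error 0.18, limma adjusted p = 1.1e-06) with siINO80#1, or 9.82-fold, and by 3.88 (standard error 0.18, limma adjusted p = 2.0e-07) with siINO80#2, or 14.7-fold. In the drug experiment it had 762 and 581 normalized counts in DMSO with NTG, 109, 85.9 and 58.7 in DMSO with siMCRS1, 1001, 1044 and 1075 in EPZ-6438 with NTG and 136 and 110.1 in EPZ-6438 with siMCRS1. The siMCRS1 libraries were again all below the controls of their treatment. The decrease with siMCRS1 was by 3.01 (standard error 0.23, limma adjusted p = 1.4e-05) in DMSO and by 3.08 (standard error 0.23, limma adjusted p = 7.6e-06) in EPZ-6438. These calls held under all 20 alternatives in each comparison.

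CYP19A1 lies on chromosome 15 of GRCh38.p14, from 51208057 to 51338596 on the minus strand, and has 7 annotated start sites with a RefSeq promoter window. Its gene body overlaps an unnamed gene on the same strand and others on the opposite strand. The window furthest downstream, the 250 bases before that start at chr15:51243030-51243279 (minus strand), is shown because, of the windows of CYP19A1, it alone holds a TATA box (TATAAA), next to the nuclear receptor motif AGGTCA and a CCAAT box. Capitals mark these matches, on either strand. Which start these cells used was not measured.
CYP19A1: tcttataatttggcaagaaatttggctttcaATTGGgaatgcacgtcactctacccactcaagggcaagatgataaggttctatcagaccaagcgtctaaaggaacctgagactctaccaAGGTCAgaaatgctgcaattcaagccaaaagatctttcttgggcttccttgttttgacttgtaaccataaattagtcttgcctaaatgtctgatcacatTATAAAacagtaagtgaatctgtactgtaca

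CYP17A1, the hydroxylase and lyase that leads to cortisol and androgens, had few counts. It stood at 35.7, 55.4 and 70.1 normalized counts in NTG, 3.58, 5.95 and 13.1 in siINO80#1 and 12.3, 19.9 and 18.9 in siINO80#2, with no overlap between NTG and either siRNA. It fell by 2.79 (standard error 0.42, limma adjusted p = 4.4e-04) with siINO80#1 and by 1.58 (standard error 0.42, limma adjusted p = 0.0087) with siINO80#2. With siMCRS1 it had 0, 5.51 and 2.86 normalized counts in DMSO, against 13.4 and 16.2 with NTG, and 4.80 and 4.44 in EPZ-6438, against 23.7, 117 and 30.5 with NTG. The siMCRS1 levels are near the floor of 3 reads, and library 2 of EPZ-6438 with NTG lies far above its replicates. CYP17A1 fell by 2.43 (standard error 0.81, limma adjusted p = 0.030) in DMSO, a call lost under 8 of 18 alternatives, the omission of either DMSO with NTG library included. In EPZ-6438 it fell by 3.01 (standard error 0.81, limma adjusted p = 0.0094). That call was lost with a pseudocount of 0.1 (limma adjusted p = 0.076) and without EPZ-6438 siMCRS1 library B, where the log2 fold change was -2.96. CYP11A1, which cleaves the cholesterol side chain at the start of steroid synthesis, fell by 2.47 (standard error 0.68, limma adjusted p = 0.010) with siMCRS1 in EPZ-6438, from 39.9, 42.6 and 39.9 to 8.0 and 5.33 normalized counts, and this call too was lost without library B (adjusted p = 0.075). CYP21A2, a steroid hydroxylase of the adrenal cortex with a near-identical pseudogene whose reads may be shared, passed no test, with log2 fold changes of 0.05 and 0.31 for the INO80 siRNAs and of -1.0 and -0.82 for siMCRS1 in DMSO and EPZ-6438.

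Among the cholesterol and bile acid genes, CYP8B1 fell in every knockdown comparison. This sterol hydroxylase directs bile acid synthesis towards cholic acid. It had 167, 123 and 121 normalized counts in NTG, 41.7, 31.7 and 45.5 in siINO80#1 and 31.4, 59.7 and 34.0 in siINO80#2. With DMSO or EPZ-6438 the levels were 141 and 113 in DMSO with NTG, 54.5, 24.2 and 22.9 in DMSO with siMCRS1, 121, 197 and 165 in EPZ-6438 with NTG and 48.0 and 24.0 in EPZ-6438 with siMCRS1. Knockdown and control libraries did not overlap in any of these comparisons. CYP8B1 fell by 1.76 (standard error 0.26, limma adjusted p = 3.6e-04) with siINO80#1, by 1.74 (standard error 0.26, limma adjusted p = 2.2e-04) with siINO80#2, by 1.98 (standard error 0.41, limma adjusted p = 0.0025) with siMCRS1 in DMSO and by 2.18 (standard error 0.41, limma adjusted p = 0.0011) in EPZ-6438. Its gene body lies within genes of the opposite strand, ACKR2 among them, and whether the quantification used the strand of these stranded libraries is not given in the sources used here. Of the 35 genes tested in either experiment, 15 overlap a gene of the opposite strand and 7 a gene of the same strand.

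CYP7A1, the rate-limiting enzyme of the classical bile acid pathway, was tested in the drug experiment alone and had few counts. It had 30.6 and 10.5 normalized counts in DMSO with NTG, 6.68, 1.10 and 2.86 in DMSO with siMCRS1, 57.1, 16.3 and 32.6 in EPZ-6438 with NTG and 18.4 and 3.55 in EPZ-6438 with siMCRS1. It fell by 2.27 (standard error 0.79, limma adjusted p = 0.035) in DMSO, a call lost under 6 of 19 alternatives. Among these were quantile normalization (limma adjusted p = 0.089) and the omission of DMSO siMCRS1 library 2 or 3 (limma adjusted p = 0.11 and 0.068). Without DMSO NTG library 1 the log2 fold change was -1.54. The groups overlapped in EPZ-6438, at -1.78 (standard error 0.79, limma adjusted p = 0.078). In the INO80 experiment, under the minimum, CYP7A1 ran from 5.58 to 22.1 normalized counts in NTG and from 0 to 4.96 over the siINO80 libraries. With the minimum lowered to a mean of 1, CYP7A1 fell there by 2.22 with siINO80#2 (standard error 0.67, limma adjusted p = 0.019), and with siINO80#1 the difference was -1.30 (adjusted p = 0.18).

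CYP27A1, of the alternative bile acid pathway, fell with both INO80 siRNAs. It had 2749, 2950.2 and 3154 normalized counts in NTG, 2156, 2182 and 2421 in siINO80#1 and 1391, 1567 and 1261 in siINO80#2, with no overlap among the 3 groups. It fell by 0.39 (standard error 0.09, limma adjusted p = 0.0061) with siINO80#1 and by 1.07 (standard error 0.09, limma adjusted p = 5.0e-06) with siINO80#2, and siINO80#2 was lower than siINO80#1 by a log2 difference of -0.68 (limma adjusted p = 8.0e-04). With siMCRS1 the differences were -0.20 (standard error 0.14, limma adjusted p = 0.28) in DMSO and -0.35 (standard error 0.14, limma adjusted p = 0.059) in EPZ-6438. Both of these passed the threshold after rescaling to equal totals, at -0.43 and -0.58, and after quantile normalization, at -0.40 and -0.61. The difference in EPZ-6438 also passed in edgeR (-0.37, adjusted p = 0.0375), with only the groups compared in limma (adjusted p = 0.046), and without DMSO siMCRS1 library 3 or EPZ-6438 NTG library 3 (adjusted p = 0.035 and 0.042).

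CYP51A1 fell by 0.68 (standard error 0.13, limma adjusted p = 0.0012) with siINO80#2, from 8437, 7305 and 8075 to 5321, 5637 and 4067 normalized counts. In siINO80#1 it had 7214, 5631 and 6736, a difference of -0.29 (standard error 0.13, limma adjusted p = 0.10), and with siMCRS1 it differed by -0.08 in DMSO (95% interval -0.43 to 0.27) and 0.10 in EPZ-6438 (-0.25 to 0.46). CYP46A1, the cholesterol hydroxylase of neurons, and CYP39A1, an oxysterol hydroxylase, were called in no knockdown comparison in which they were tested.

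The fatty acid and eicosanoid genes held the most members that moved together. Of the 8 tested in the INO80 experiment 5 fell with each siRNA, where 20.8% and 28.4% of all genes fell, and of the 7 tested in the drug experiment 5 fell with siMCRS1 in each treatment, where 24.6% and 26.9% did, and these were CYP4F2, CYP4F3, CYP4F11, CYP4F12 and CYP4V2 in every case. The CYP4F enzymes hydroxylate the end carbon of leukotrienes, arachidonic acid and the side chain of vitamin K, and CYP4V2 does the same to medium-chain fatty acids. The median log2 fold change of the tested members of this group was -0.62 for siINO80#1, -0.83 for siINO80#2, -1.25 for siMCRS1 in DMSO and -1.43 in EPZ-6438. The CYP4F genes are close paralogs, so reads shared between them may have been divided by the quantification.

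CYP4F22, CYP4F8, CYP4F3, CYP4F12, CYP4F2 and CYP4F11 lie in this order within 426 kb of chromosome 19, the last pair on the minus strand and the rest on the plus strand of GRCh38.p14. The promoter windows of CYP4F2, CYP4F3 and CYP4F11 are shown so that the sequence ahead of the starts of these neighbours, which all fell, can be compared. They are the 250 bases before the start at chr19:15898075-15898324 for CYP4F2 (minus strand), chr19:15641062-15641311 for CYP4F3 (plus strand), and chr19:15934868-15935117 and chr19:15934530-15934779 for the upstream and downstream starts of CYP4F11 (minus strand). The CYP4F3 window lies within the gene body, which begins at 15640897, so it precedes an internal start. Capitals mark CCAAT on either strand.
CYP4F2: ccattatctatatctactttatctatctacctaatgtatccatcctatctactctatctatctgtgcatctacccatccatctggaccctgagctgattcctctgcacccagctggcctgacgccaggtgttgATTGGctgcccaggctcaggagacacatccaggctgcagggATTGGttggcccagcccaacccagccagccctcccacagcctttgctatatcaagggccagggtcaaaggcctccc
CYP4F11 upstream start: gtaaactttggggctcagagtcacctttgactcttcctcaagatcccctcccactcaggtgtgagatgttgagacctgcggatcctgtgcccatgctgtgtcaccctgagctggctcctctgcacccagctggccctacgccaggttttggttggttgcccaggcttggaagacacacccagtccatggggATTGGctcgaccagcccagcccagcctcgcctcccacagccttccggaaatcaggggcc
CYP4F3: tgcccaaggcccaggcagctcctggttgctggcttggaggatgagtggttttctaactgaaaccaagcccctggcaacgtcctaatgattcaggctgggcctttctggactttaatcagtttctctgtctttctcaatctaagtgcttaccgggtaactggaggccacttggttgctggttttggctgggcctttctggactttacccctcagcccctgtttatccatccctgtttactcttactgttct
CYP4F11 downstream start: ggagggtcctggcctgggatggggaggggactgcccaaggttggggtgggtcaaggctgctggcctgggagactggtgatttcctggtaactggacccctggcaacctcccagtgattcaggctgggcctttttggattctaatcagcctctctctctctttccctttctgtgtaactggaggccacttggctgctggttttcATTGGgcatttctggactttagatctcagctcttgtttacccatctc

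The 250 bases before each start were compared in a global alignment. Identity was taken over aligned bases without gap positions, of which the pairs given here had 36 to 82. Unrelated windows were not aligned, so the lower values have no background to be read against. The CYP4F2 window was 73.9% identical to that of the upstream start of CYP4F11 over 230 aligned bases. The CYP4F3 window was 78.7% identical to the window of the downstream start over 216. The other way round, CYP4F2 shared 52.3% with the downstream start and CYP4F3 60.8% with the upstream start. The window of CYP4F8 shared 71.6% with the upstream start of CYP4F11 and 69.1% with CYP4F2. CYP4F8 was not called with either INO80 siRNA. With the minimum lowered to a mean of 1, it fell by 2.24 (standard error 0.66, limma adjusted p = 0.020) with siMCRS1 in DMSO. With siMCRS1 in EPZ-6438 it was not called at that minimum, at -0.57 (limma adjusted p = 0.55). Whether such identity bears on the decreases was not tested. Each of the windows of CYP4F2 and CYP4F11 holds CCAAT on the minus strand of the gene, and that of CYP4F3 holds none of the motifs searched.

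CYP4F12 had 336, 333 and 419.5 normalized counts in NTG, 131, 110.1 and 143 in siINO80#1 and 88.6, 108 and 79.4 in siINO80#2. It had 380.1 and 405 in DMSO with NTG, 177, 111 and 97.4 in DMSO with siMCRS1, 423, 335 and 457 in EPZ-6438 with NTG and 194 and 82.5 in EPZ-6438 with siMCRS1. All knockdown libraries were below their controls, although EPZ-6438 siMCRS1 library A stood well above library B. CYP4F12 fell by 1.50 (standard error 0.16, limma adjusted p = 4.1e-05) with siINO80#1, by 1.97 (standard error 0.16, limma adjusted p = 3.2e-06) with siINO80#2, by 1.65 (standard error 0.34, limma adjusted p = 0.0024) with siMCRS1 in DMSO and by 1.66 (standard error 0.34, limma adjusted p = 0.0019) in EPZ-6438.

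CYP4F3, the leukotriene hydroxylase, had 519, 519 and 661 normalized counts in NTG, 232, 261 and 259 in siINO80#1 and 138, 171 and 135 in siINO80#2. The siINO80#2 libraries lay below the siINO80#1 libraries, which lay below NTG. Levels were 473 and 586 in DMSO with NTG, 184, 218 and 251 in DMSO with siMCRS1, 752, 752 and 1149 in EPZ-6438 with NTG and 332 and 193 in EPZ-6438 with siMCRS1. It fell by 1.16 (standard error 0.13, limma adjusted p = 6.2e-05), 1.93 (standard error 0.13, limma adjusted p = 1.2e-06), 1.28 (standard error 0.26, limma adjusted p = 0.0021) and 1.77 (standard error 0.26, limma adjusted p = 2.3e-04) with siINO80#1, siINO80#2 and siMCRS1, the last in DMSO and then in EPZ-6438, and siINO80#2 was below siINO80#1 by a log2 difference of -0.76 (limma adjusted p = 0.0027).

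CYP4F2, an arachidonic acid and vitamin K hydroxylase, had 52.4, 76.0 and 74.9 normalized counts in NTG, 33.4, 29.7 and 42.0 in siINO80#1 and 15.7, 37.5 and 19.8 in siINO80#2. Its levels in the drug experiment were 62.2 and 70.6 in DMSO with NTG, 14.5, 16.5 and 8.59 in DMSO with siMCRS1, 166, 171 and 271 in EPZ-6438 with NTG and 47.2 and 11.5 in EPZ-6438 with siMCRS1. It fell by 2.29 (standard error 0.50, limma adjusted p = 0.0034) with siMCRS1 in DMSO and by 3.01 (standard error 0.50, limma adjusted p = 5.2e-04) in EPZ-6438, the largest decreases of the group, and by 1.51 (standard error 0.31, limma adjusted p = 0.0018) with siINO80#2. With siINO80#1 it fell by 0.93 (standard error 0.31, limma adjusted p = 0.033), a call lost without NTG library B or C or siINO80#1 library A or B (adjusted p from 0.081 to 0.10). It was also lost with no filter but a mean above 0 (limma adjusted p = 0.057).

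CYP4V2 had 358, 343 and 422 normalized counts in NTG, 230.1, 178 and 244 in siINO80#1 and 176, 219.8 and 224 in siINO80#2, with no overlap with NTG. It fell by 0.79 (standard error 0.15, limma adjusted p = 0.0016) and 0.86 (standard error 0.15, limma adjusted p = 5.8e-04) with the INO80 siRNAs, by 1.25 (standard error 0.28, limma adjusted p = 0.0042) with siMCRS1 in DMSO and by 1.43 (standard error 0.28, limma adjusted p = 0.0016) in EPZ-6438. CYP4F11 had 217, 243 and 228 normalized counts in NTG, 204, 168 and 139 in siINO80#1 and 127, 132 and 134 in siINO80#2. It moved least of the 5, falling by 0.45 (standard error 0.14, limma adjusted p = 0.025) with siINO80#1, 0.81 (standard error 0.14, limma adjusted p = 5.9e-04) with siINO80#2, 0.64 (standard error 0.23, limma adjusted p = 0.042) with siMCRS1 in DMSO and 1.20 (standard error 0.23, limma adjusted p = 0.0013) in EPZ-6438. Its call with siINO80#1 was lost without NTG library B or C or siINO80#1 library B or C (adjusted p from 0.064 to 0.10). The call in DMSO was lost under 9 of 20 alternatives, among them quantile normalization (-0.35, limma adjusted p = 0.24) and the omission of any of 6 libraries. Without DMSO NTG library 1 or 3 the log2 fold change was -0.75 or -0.52. CYP4F8, at 33.5, 35.9 and 40.3 normalized counts in NTG, was tested in the INO80 experiment alone and was not called there, at -0.43 and -0.37. With the minimum lowered to a mean of 1, CYP4F8 fell by 2.24 with siMCRS1 in DMSO (standard error 0.66, limma adjusted p = 0.020). In EPZ-6438 its difference was then -0.57 (limma adjusted p = 0.55). The epoxygenase CYP2J2 and the fatty acid hydroxylase CYP2U1 passed no knockdown test, with log2 fold changes of 0.34, 0.35, -0.16 and -0.15 for CYP2J2 and 0.07, 0.30, -0.57 and -0.55 for CYP2U1, the first pair of each from the INO80 siRNAs and the second from siMCRS1 in DMSO and EPZ-6438.

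**Figure D3:**
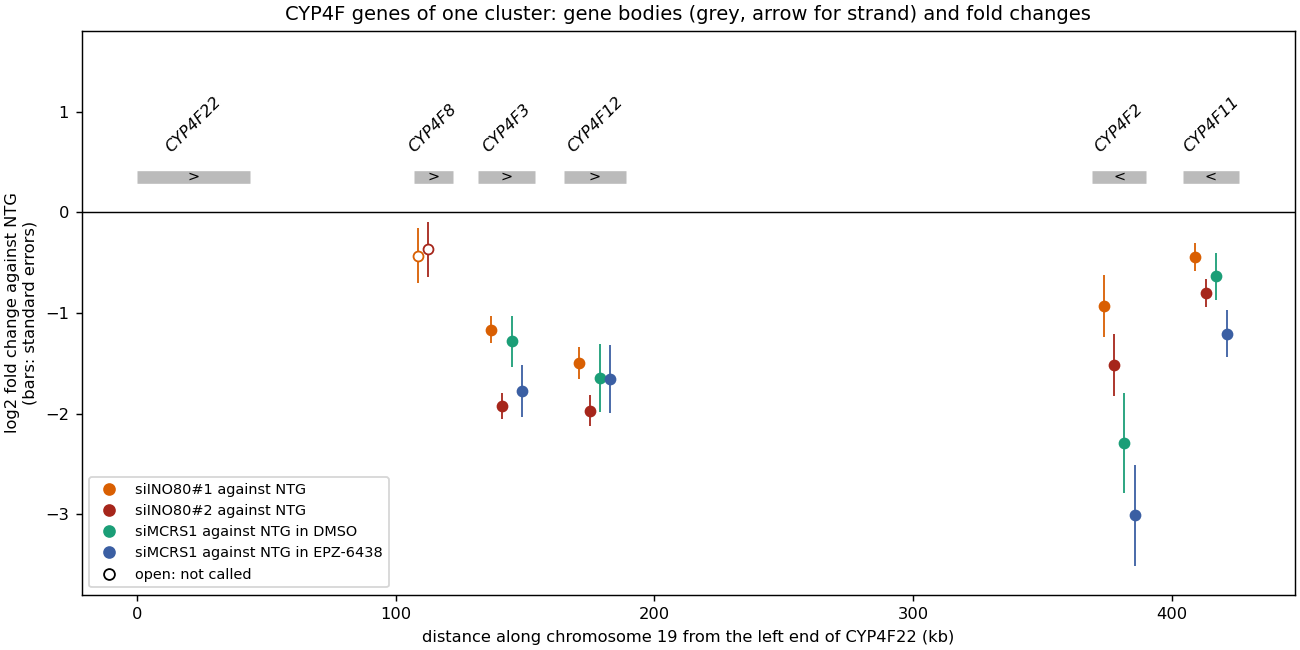
CYP4F genes on chromosome 19, with distance in kb from the left end of CYP4F22 on the x axis (grey bars, gene bodies; arrowheads, strand) and log2 fold change against NTG with standard errors on the y axis. Filled points were called. CYP4F3, CYP4F12, CYP4F2 and CYP4F11 lie below 0 in all 4 knockdown comparisons, CYP4F8 is open with both INO80 siRNAs, and CYP4F22 was not tested.

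CYP24A1, which inactivates vitamin D and is a classical target of its receptor, was the sole cytochrome P450 gene that rose in all 4 knockdown comparisons. It had 708, 1017 and 773 normalized counts in NTG, 2177, 2634 and 2452 in siINO80#1 and 2119, 2020.3 and 2265 in siINO80#2. Each siINO80 library was above each NTG library. CYP24A1 rose by 1.55 (standard error 0.13, limma adjusted p = 7.9e-06) with siINO80#1 and by 1.37 (standard error 0.13, limma adjusted p = 7.8e-06) with siINO80#2. In the other experiment its levels were 1378 and 2210.3 in DMSO with NTG, 6152, 9249 and 8332 in DMSO with siMCRS1, 1204, 2064 and 1871 in EPZ-6438 with NTG and 6433 and 9850.4 in EPZ-6438 with siMCRS1, again with no overlap between knockdown and control. The rise was by 2.16 (standard error 0.28, limma adjusted p = 1.8e-04) in DMSO, or 4.47-fold, and by 2.25 (standard error 0.28, limma adjusted p = 9.2e-05) in EPZ-6438, or 4.77-fold, and it held under all 20 alternatives in each comparison. No annotated gene overlaps CYP24A1, which occupies bases 54143538 to 54173986 of chromosome 20 in GRCh38.p14 (minus strand).

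No other tested vitamin D or retinoid gene was called. CYP27B1, which makes the active hormone, CYP2R1, the vitamin D hydroxylase of liver, and CYP27C1, a retinoid desaturase, had log2 fold changes between -0.48 and 0.44. CYP26A1, which degrades retinoic acid, was under the minimum in both experiments. It had 23.4, 5.13 and 14.4 normalized counts in NTG, 0, 0.991 and 3.50 in siINO80#1 and 2.24, 2.30 and 0 in siINO80#2, from 41 reads over the NTG libraries and 5 over each siRNA group. It had 9.57 and 4.77 in DMSO with NTG, 3.34, 1.10 and 1.43 in DMSO with siMCRS1, 3.23, 18.5 and 2.10 in EPZ-6438 with NTG and 0.800 and 2.66 in EPZ-6438 with siMCRS1. No siINO80 library reached the NTG levels, and most siRNA libraries are at or under the floor of 3 reads. With the minimum lowered to a mean of 1 normalized count, CYP26A1 fell by 2.67 (standard error 0.72, limma adjusted p = 0.014) with siINO80#1 and by 2.58 (standard error 0.72, limma adjusted p = 0.012) with siINO80#2, while -1.48 and -1.31 with siMCRS1 in DMSO and EPZ-6438 did not pass (adjusted p = 0.17 and 0.21).

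**Figure D4:**
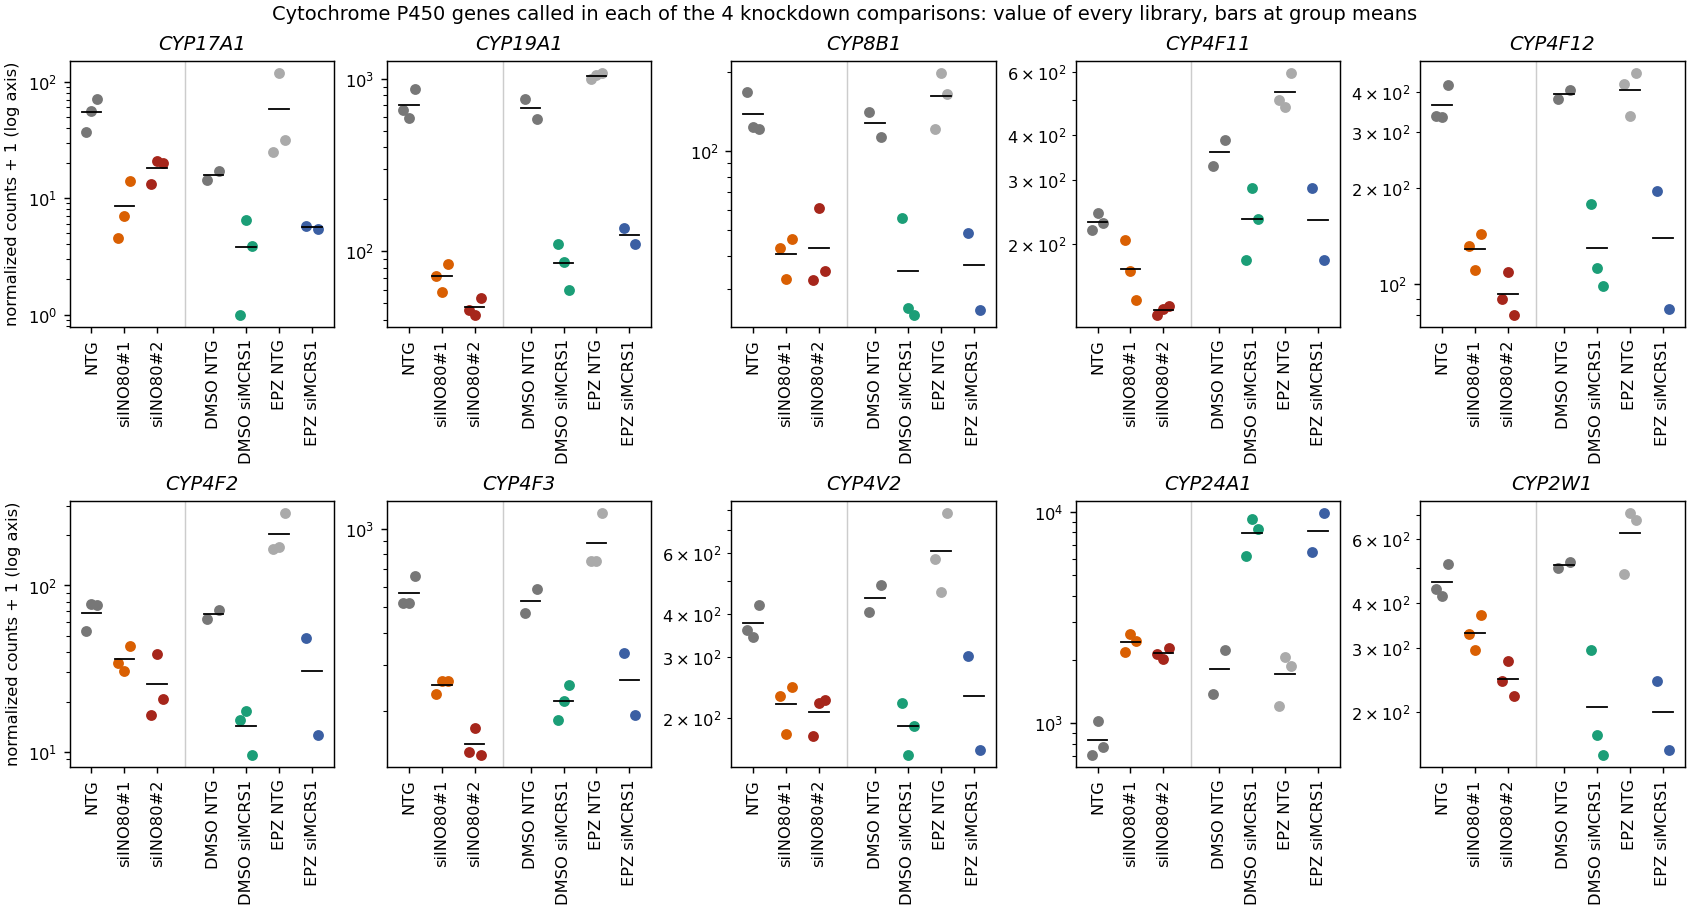
Normalized counts plus 1, on a log axis, of the 10 cytochrome P450 genes called in each of the 4 knockdown comparisons; each point is a library, each bar a group mean, and the grey line separates the INO80 experiment (left) from the drug experiment (right). Knockdown libraries lie below the NTG libraries of the same treatment in 9 panels and above them in that of CYP24A1. The share of all genes called in all 4 comparisons was not counted.

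Of the 10 genes of drug and xenobiotic metabolism tested in the INO80 experiment, 2 fell with siINO80#1 (20.8% of all genes fell), and 2 fell and 1 rose with siINO80#2 (28.4% and 26.6% of all genes). Of the 8 tested in the drug experiment, siMCRS1 lowered 1 in DMSO (24.6% of all genes) and 2 in EPZ-6438 (26.9%). These counts are near or below the share of all genes. CYP3A7, the fetal liver form of the drug oxidases, had 161, 152 and 261 normalized counts in NTG, 108, 67.4 and 106 in siINO80#1 and 107, 94.2 and 123 in siINO80#2. It fell by 1.01 (standard error 0.24, limma adjusted p = 0.0064) and by 0.78 (standard error 0.24, limma adjusted p = 0.017), the latter call being lost without NTG library C (adjusted p = 0.071). With siMCRS1 it went from 73.7 and 93.5 to 50.1, 94.7 and 50.1 normalized counts in DMSO, at -0.42 (standard error 0.37, limma adjusted p = 0.38), and from 131, 235 and 250.2 to 71.2 and 122 in EPZ-6438, where it fell by 1.07 (standard error 0.37, limma adjusted p = 0.030). The call in EPZ-6438 was lost under 5 of 20 alternatives. Among these were quantile normalization (-0.67, limma adjusted p = 0.18) and the omission of EPZ-6438 NTG library 2 or 3 (limma adjusted p = 0.084 and 0.092). Without EPZ-6438 siMCRS1 library A the log2 fold change was -0.69. The CYP3A genes are close paralogs and may share reads.

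CYP3A5, the most abundant of these paralogs here, had 449, 421 and 489 normalized counts in NTG, 449, 502 and 399 in siINO80#1 and 563, 492 and 624 in siINO80#2. It rose by 0.30 (standard error 0.12, limma adjusted p = 0.046) with siINO80#2, a call lost under 11 of 20 alternatives, and without siINO80#2 library C the log2 fold change was 0.22 (adjusted p = 0.13). With siINO80#1 it differed by -0.01 and with siMCRS1 by -0.05 in DMSO and -0.43 in EPZ-6438, none of them called. CYP3A43, at 22.3, 15.4 and 31.7 normalized counts in NTG, fell by 1.67 (standard error 0.48, limma adjusted p = 0.013) with siINO80#2 and by 2.44 (standard error 0.50, limma adjusted p = 0.0019) with siMCRS1 in EPZ-6438. It had 3.37, 8.42 and 8.50 normalized counts in siINO80#2, 34.5, 23.4 and 48.4 in EPZ-6438 with NTG and 5.60 and 5.33 in EPZ-6438 with siMCRS1. Its call with siINO80#2 was lost without NTG library C (adjusted p = 0.057). CYP3A4 stayed between 5.96 and 20.6 normalized counts in all libraries, and its log2 fold changes of -0.20, 0.02, -0.12 and -0.27 had 95% intervals that reached from -0.96 to 0.55 for siINO80#1 and from -1.28 to 0.74 for siMCRS1 in EPZ-6438. Differences within these intervals were not detectable at its depth.

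CYP1A1, which oxidizes aromatic hydrocarbons and is the textbook target of the aryl hydrocarbon receptor AHR, had 650.2, 751 and 854 normalized counts in NTG, 537, 677 and 529 in siINO80#1 and 817, 842 and 702 in siINO80#2. NTG overlapped both siRNA groups, while each siINO80#2 library was above each siINO80#1 library. It fell by 0.37 (standard error 0.13, limma adjusted p = 0.037) with siINO80#1, differed by 0.07 (standard error 0.13, limma adjusted p = 0.67) with siINO80#2, and was higher in siINO80#2 than in siINO80#1 by 0.44 (standard error 0.13, limma adjusted p = 0.031). In the drug experiment it had 1933 and 1639.6 in DMSO with NTG, 1199.7, 745 and 1036 in DMSO with siMCRS1, 3131, 1635 and 2607 in EPZ-6438 with NTG and 2264 and 1200.0 in EPZ-6438 with siMCRS1. The siMCRS1 libraries lay below the controls in DMSO and overlapped them in EPZ-6438. CYP1A1 fell by 0.87 (standard error 0.31, limma adjusted p = 0.039) with siMCRS1 in DMSO, and the difference in EPZ-6438 was -0.52 (standard error 0.31, limma adjusted p = 0.18). None of its calls was stable, the call with siINO80#1 being lost without NTG library B or C or siINO80#1 library A or C (adjusted p up to 0.15), that in DMSO without either DMSO NTG library or DMSO siMCRS1 library 2 or 3 (up to 0.19), and that between the siRNAs without library A or C of siINO80#1 or A or B of siINO80#2 (up to 0.11).

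CYP1A2, a close paralog that may share reads with CYP1A1 and that metabolizes caffeine, had 12.3 to 32.6 normalized counts in NTG and was called in no comparison, at 0.18 (standard error 0.39, limma adjusted p = 0.75) with siINO80#1, 0.37 (standard error 0.39, limma adjusted p = 0.45) with siINO80#2, -0.67 (standard error 0.41, limma adjusted p = 0.20) after siMCRS1 in DMSO and -0.04 (standard error 0.41, limma adjusted p = 0.95) in EPZ-6438. CYP2E1, with 14.4 to 18.2 in NTG, was not called either, at -0.36 (standard error 0.28, limma adjusted p = 0.33), 0.13 (standard error 0.28, limma adjusted p = 0.70), 1.01 (standard error 0.60, limma adjusted p = 0.19) and 0.74 (standard error 0.60, limma adjusted p = 0.32) in the same order. Both genes had few counts and overlapping groups in most comparisons. CYP2B6 and CYP2D6 were tested in the INO80 experiment alone and were not called there, at -0.11 and -0.31 for CYP2B6 and -0.55 and -0.31 for CYP2D6. With the minimum lowered to a mean of 1, CYP2D6 fell by 1.95 (standard error 0.57, limma adjusted p = 0.017) with siMCRS1 in EPZ-6438. In DMSO it differed by 0.29 (limma adjusted p = 0.75). Between EPZ-6438 and DMSO with NTG it differed by 1.60 (limma adjusted p = 0.23). CYP2D6 was low in the drug experiment, at 3.01 ± 2.55 normalized counts per kb in DMSO with NTG (SD, n = 2). With the same lowered minimum, CYP2B6 was called with siMCRS1 in neither treatment (limma adjusted p = 0.10 in DMSO and 0.65 in EPZ-6438). CYP2D7, a close paralog of CYP2D6 that may share its reads, was not called either, at 0.05, 0.89, -0.92 and 0.53 for the 4 knockdown comparisons.

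Of the members with little-studied substrates, CYP2S1 was the other gene that rose with both INO80 siRNAs. It had 193, 209 and 137 normalized counts in NTG, 361, 438 and 388 in siINO80#1 and 388, 273 and 558 in siINO80#2, and rose by 1.15 (standard error 0.23, limma adjusted p = 0.0027) and by 1.13 (standard error 0.23, limma adjusted p = 0.0019). Replicates of siINO80#2 spread widely, with library C highest, yet none reached down to NTG. With siMCRS1 it differed by 0.45 (standard error 0.38, limma adjusted p = 0.35) in DMSO and 0.0029 in EPZ-6438. CYP2W1, an enzyme known from fetal gut and colon tumors, had 437, 418 and 511 normalized counts in NTG, 327, 295 and 369 in siINO80#1 and 242, 276 and 221 in siINO80#2. The table of the drug experiment gave 499 and 516 in DMSO with NTG, 295, 172 and 152 in DMSO with siMCRS1, 479, 705 and 677 in EPZ-6438 with NTG and 242 and 156 in EPZ-6438 with siMCRS1. The knockdown libraries were all below their controls. CYP2W1 fell by 0.46 (standard error 0.12, limma adjusted p = 0.012) with siINO80#1, 0.88 (standard error 0.12, limma adjusted p = 1.3e-04) with siINO80#2, 1.36 (standard error 0.29, limma adjusted p = 0.0029) with siMCRS1 in DMSO and 1.65 (standard error 0.29, limma adjusted p = 7.3e-04) in EPZ-6438, the first of these being lost without NTG library C or siINO80#1 library B (adjusted p = 0.054 and 0.052). CYP20A1, an orphan enzyme, fell by 0.43 (standard error 0.13, limma adjusted p = 0.018) with siINO80#1, 0.51 (standard error 0.13, limma adjusted p = 0.0052) with siINO80#2 and 0.39 (standard error 0.14, limma adjusted p = 0.034) with siMCRS1 in DMSO. The first call was lost without NTG library A or siINO80#1 library B (adjusted p = 0.064 and 0.074). That in DMSO was lost under 7 of 20 alternatives, the omission of either DMSO NTG library included. Among the others were quantile normalization (limma adjusted p = 0.097) and the omission of DMSO siMCRS1 library 2 or 3 (limma adjusted p = 0.096 and 0.11).

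EPZ-6438 changed no cytochrome P450 gene past the threshold in limma or in edgeR. With NTG, 9 of 32 genes had an unadjusted p under 0.05 in limma (28.1%, against 17.1% of all genes tested) and 10 in edgeR. Without DMSO NTG library 1, 4 of 31 did, beside 1586 of 14331 genes. After adjustment, 0.384% of the 14312 genes passed. With siMCRS1, 5 had an unadjusted p under 0.05 in both tools (15.6%, against 9.12%), and 0.0908% of all genes passed after adjustment. This count was lower without EPZ-6438 siMCRS1 library A and higher without library B, and so was the count over all genes tested. Each omission leaves a lone library in that group. Most estimates were positive, with 29 of 32 above 0 with NTG and 27 of 32 with siMCRS1, where 46% and 46.2% of all genes were above 0. The medians were 0.42 and 0.23, beside -0.03 and -0.02 for all genes, and that with siMCRS1 ran from 0.17 without EPZ-6438 siMCRS1 library A to 0.37 without library B. The comparisons share no library.

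The largest estimates came from genes with few counts. CYP3A43 had 6.70 and 9.54 normalized counts in DMSO with NTG and 34.5, 23.4 and 48.4 in EPZ-6438 with NTG, a log2 difference of 1.96 (standard error 0.50, limma adjusted p = 0.10). CYP39A1 went with NTG from 6.70 and 7.63 in DMSO to 21.5, 19.9 and 31.5 in EPZ-6438, at 1.61 (standard error 0.51, limma adjusted p = 0.16), and with siMCRS1 from 2.23, 8.81 and 2.86 to 21.6 and 16.0, at 1.98 (standard error 0.51, limma adjusted p = 0.24). In each of these the libraries of the treatments did not overlap. CYP4F2 differed by 1.56 (standard error 0.50, limma adjusted p = 0.16) with NTG, where no DMSO library reached the EPZ-6438 libraries, and was the gene that passed the threshold when only the groups compared entered the fit. CYP3A7 and CYP2U1 differed with NTG by 1.24 and 0.93, and CYP19A1 by 0.64 with NTG and 0.57 with siMCRS1, none of them past the threshold. CYP24A1, which rose with each siRNA, differed by -0.06 with NTG (95% interval -0.69 to 0.56) and by 0.03 with siMCRS1 (-0.59 to 0.65), and CYP27A1 by 0.15 with NTG (-0.17 to 0.46).

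**Figure D5:**
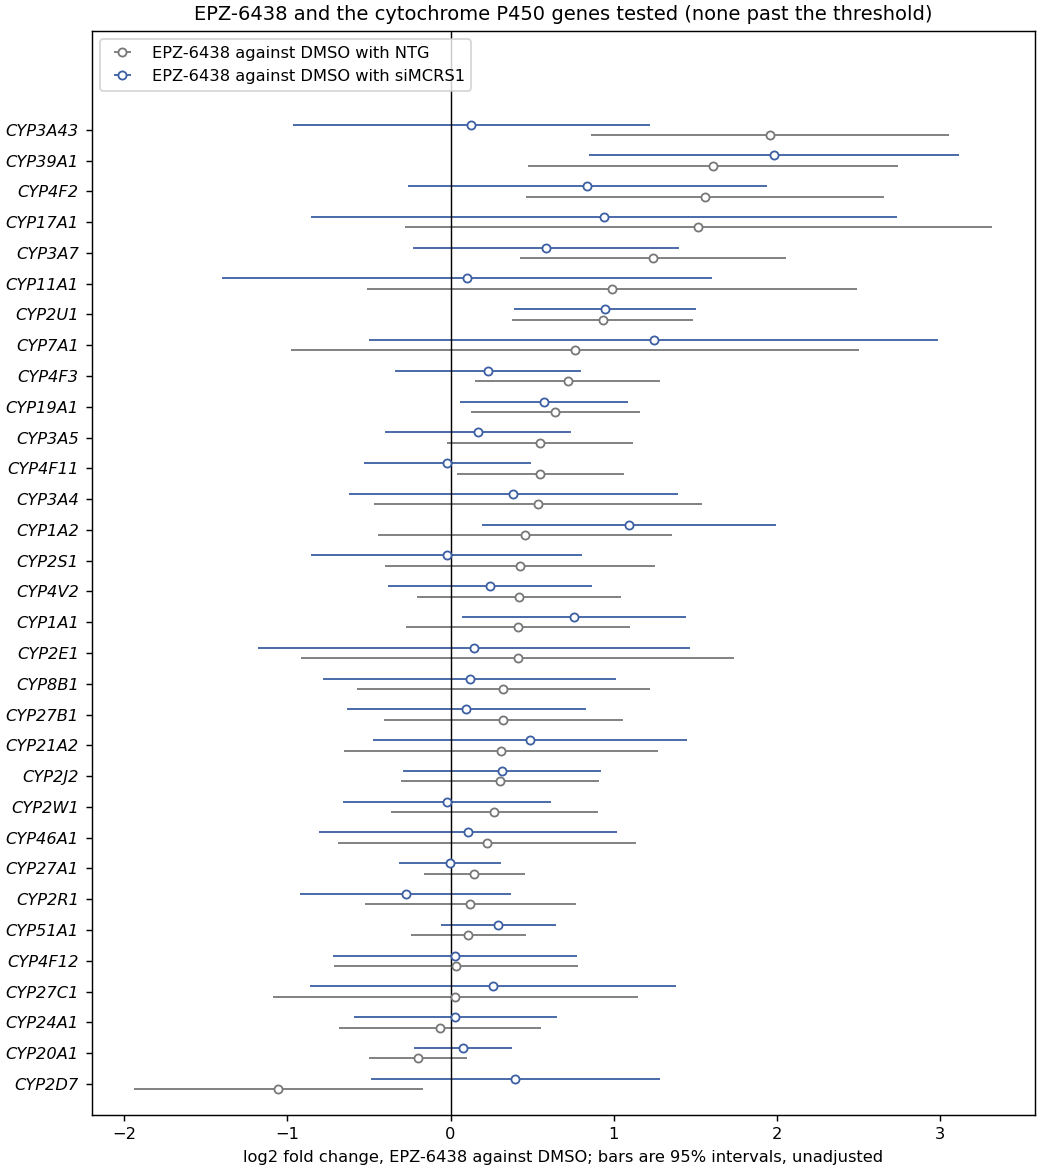
Log2 fold change of EPZ-6438 against DMSO for the 32 cytochrome P450 genes tested, with unadjusted 95% intervals, in NTG (grey) and siMCRS1 libraries (blue). No gene passed the threshold in either comparison, and 29 and 27 of the 32 points lie right of 0.

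The effect of siMCRS1 did not differ between DMSO and EPZ-6438 past the threshold for any cytochrome P450 gene, and 0.0% of all genes passed in limma or in edgeR. At an unadjusted p under 0.05, 2 of 32 genes stood out in both tools (6.25%, against 2.35% of all genes tested in limma), CYP3A43 with a difference of -1.83 (standard error 0.70, limma adjusted p = 1.0) and CYP2D7 with 1.45 (standard error 0.57, limma adjusted p = 1.0). The count was 0 without DMSO NTG library 1 or EPZ-6438 siMCRS1 library B, and 1 without EPZ-6438 NTG library 3. For CYP19A1 the difference between treatments was -0.07 (95% interval -0.80 to 0.66) and for CYP24A1 0.09 (-0.78 to 0.97).

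The partners of the enzymes were mixed. Their counts, and those of the lists after them, stand beside 20.8%, 28.4%, 24.6% and 26.9% of all genes lower and 20.7%, 26.6%, 23.1% and 26.8% higher with siINO80#1, siINO80#2, siMCRS1 in DMSO and siMCRS1 with EPZ-6438, and nothing particular to a list is read from them. Of 8 electron donor genes, 2 rose and 4 fell with siINO80#1, 1 rose and 4 fell with siINO80#2, and 2 rose and 3 fell with siMCRS1 in each treatment. POR, the reductase that serves the microsomal members, fell by 0.35 (standard error 0.09, limma adjusted p = 0.0080) and 0.65 (standard error 0.09, limma adjusted p = 1.0e-04) with the INO80 siRNAs and by 0.37 (standard error 0.14, limma adjusted p = 0.049) and 0.49 (standard error 0.14, limma adjusted p = 0.014) after siMCRS1 in DMSO and EPZ-6438. FDXR, the reductase of the mitochondrial members, fell by 0.87, 1.36, 1.95 and 2.28, and cytochrome b5, CYB5A, by 0.64, 1.16, 0.53 and 0.54, in the same order. CYB5A was also higher with EPZ-6438, by 0.71 (standard error 0.10, limma adjusted p = 0.030) with NTG and 0.71 (standard error 0.10, limma adjusted p = 0.041) with siMCRS1. PGRMC2, a heme-binding partner protein, rose by 1.11, 0.75, 1.07 and 1.30 in the 4 knockdown comparisons. Of 9 heme genes, 4 fell and 1 rose with siINO80#1, 6 fell and 1 rose with siINO80#2, 4 fell with siMCRS1 in DMSO, and 5 fell and 1 rose in EPZ-6438, with ALAD lower in all 4 comparisons.

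Of the 22 regulators of these genes tested in the INO80 experiment, 8 fell and 4 rose with siINO80#1 and 11 fell and 3 rose with siINO80#2, and of the 23 tested in the drug experiment, 12 fell and 6 rose with siMCRS1 in DMSO and 13 fell and 3 rose in EPZ-6438. NR1H4, the bile acid receptor FXR, fell by 1.93 (standard error 0.16, limma adjusted p = 8.9e-06), 3.16 (standard error 0.16, limma adjusted p = 2.9e-07), 1.38 (standard error 0.15, limma adjusted p = 7.1e-05) and 1.30 (standard error 0.15, limma adjusted p = 6.1e-05) for siINO80#1, siINO80#2 and siMCRS1, the last in DMSO and then in EPZ-6438. HNF4A, a master factor of hepatocytes, fell by 0.45, 1.02, 0.55 and 0.55, and NR5A2, a receptor that drives CYP8B1 and CYP19A1 in other settings, by 1.51, 0.96, 0.76 and 1.14. PPARA, NR1H3 and NR0B2 were also lower in all 4 comparisons. AHR rose by 0.88, 0.85, 1.45 and 1.85, in the same order. VDR, the receptor of vitamin D, was under the minimum in the INO80 experiment and in the drug experiment fell by 1.62 (standard error 0.34, limma adjusted p = 0.0022) with siMCRS1 in EPZ-6438, at -0.47 in DMSO.

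Around the sterol members, 5 of 8 other bile acid synthesis genes fell and 1 rose with each INO80 siRNA, and of 9 tested with siMCRS1, 4 fell and 1 rose in DMSO and 5 fell and 1 rose in EPZ-6438. The steroid reductase AKR1D1 fell by 2.93, 3.58, 2.33 and 1.93, and AMACR was the gene that rose in each. Of 17 other sterol synthesis genes tested in the INO80 experiment, 6 fell and 2 rose with siINO80#1 and 11 fell and 1 rose with siINO80#2, the comparison in which CYP51A1 fell. With siMCRS1, 4 of 16 fell in each treatment, and 2 rose in DMSO and 4 in EPZ-6438, shares close to those of all genes for the decreases. Of the cytochrome P450 genes with symbols outside the name pattern, TBXAS1 fell with siMCRS1 by 1.35 in DMSO and 1.73 in EPZ-6438 and PTGIS was not called.

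RefSeq promoter windows of GRCh38.p14 were found for 39 of the 56 genes, 52 windows in all, and for 27 of the 35 genes tested in either experiment. TATAAA was present in 32.7% of the 52 windows, against 10.7% of all 35116 windows in the table, and the nuclear receptor motif AGGTCA in 25% against 12.1%, counting the 250 bases before the start and both strands. CCAAT was in 44.2% against 32%, GTTAAT in 5.77% against 6.23%, the AHR motif TNGCGTG in 1.92% against 4.52% and the sterol motif TCACNCCAC in 0% against 0.883%. CYP19A1 supplies 7 of the 52 windows, and neighbouring paralogs are not independent, so that these shares are descriptions. The tested genes with AGGTCA were CYP17A1, CYP19A1, CYP21A2, CYP27C1, CYP2B6, CYP2E1, CYP2S1, CYP3A4, CYP3A5, CYP3A7 and CYP4V2, which include genes that fell, rose and were not called.

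The 21 genes under the minimum in both experiments included the CYP2A genes, CYP2C8, CYP2C18, CYP2C19, CYP1B1, CYP4A11, CYP4A22, CYP4B1, CYP4F22, CYP4X1, CYP4Z1, CYP7B1, CYP11B1, CYP11B2, CYP2F1 and the CYP26 genes. Of these, 18 stayed under 10 normalized counts in every library of the INO80 experiment and 17 in every library of the drug experiment. CYP2A6, the nicotine oxidase, had at most 1.03 and 1.91 normalized counts. CYP2C19, CYP11B1 and CYP11B2 had no read in any library of the INO80 experiment, and CYP2C19, CYP11B2, CYP2A7, CYP2A13 and CYP4Z1 had none in the drug experiment, which allows up to the floor of 3 reads in each library and covers counting error only.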

How the data were processed

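RNA of HepG2 cells was sequenced as stranded mRNA libraries. The authors deposited 1 table per experiment of normalized counts, a never-negative signal in which the counts of a library share 1 size factor; per the labels, the submitters' processing notes name kallisto, DESeq2 and GRCh38, with no versions. Dividing by the smallest step of a library gave whole numbers (within 0.001 reads) for 100% of values, taken as reads; rounded estimates would look the same. Tables were scaled separately, so groups were compared within each. Conditions came from the labels, and drug columns were assigned to groups by name.

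Values were transformed as log2(value + 1), and genes with a mean of at least 10 were tested with limma 3.58.1 (R 4.3.3, eBayes with a trend, all groups of a table in 1 fit) with Benjamini-Hochberg adjustment over all genes tested. The edgeR 4.0.16 quasi-likelihood test on recovered reads, other pseudocounts, filters and scalings, fewer groups, the replicate block and each library left out were alternatives. On simulated counts for siINO80#1 against NTG (200 of 14034 genes changed), limma called 95% of changed genes, and 6.86% of its calls were false. The simulation gave all genes the same spread, changes larger than many reported here and no outlying library. Its rates therefore do not carry over to the reported calls or to the drug experiment. In each comparison the 6 largest changes per direction among called genes with a mean of at least 50, and the best-known members, where tested, were given in full. Some genes are not reported here. Members, lists and tests were chosen with earlier results of these data known. Positions and promoters are RefSeq's (GRCh38.p14), while strands, transcript lengths and gene overlaps come from the GENCODE annotation lifted to GRCh37. Python 3.11.15, pandas 2.3.3 and matplotlib 3.10.9 were used.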

Additional observations from a re-analysis of the deposited data

How the results depend on the processing

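Of 159 counts of called genes under alternatives, 152 were within 1.5 times the reported count. For siINO80#2 against siINO80#1, 3 genes were called with equal totals, with eBayes without a trend and with only the groups compared, in place of 5, and 2 to 7 with each library left out (2 without library A of either siRNA, 7 without library B of either). For siMCRS1 in DMSO, leaving out each library gave 8 to 14 (8 without DMSO NTG library 1, 9 without DMSO NTG library 3), in place of 13. For EPZ-6438 with NTG, only the groups compared gave 1, CYP4F2. The cause was not tested. Of 2107 fold changes of named genes under alternatives, 57 lost and 20 gained the threshold, and none past it changed sign.

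In the INO80 experiment, blocking on the letter (replicate block) left 16 genes called for siINO80#1, 16 for siINO80#2 and 6 between the siRNAs; CYP3A5 was lost for siINO80#2. Same-lettered libraries correlated between -0.08 and 0.26 in their deviations (9 pairs) and others between -0.25 and 0.10 (18 pairs). Between NTG and siINO80#1 the same-lettered pairs were at 0.247, 0.263 and 0.135 (A to C), and all other pairs of these groups were below 0. The letters were not taken as pairs in the main fit, so a pairing of these groups is allowed for in the replicate block alone. No paired analysis was possible in the drug experiment because, but for 1 group, its columns are numbered and carry no replicate letter of the labels. Depth limits the genes near 10 normalized counts, and close paralogs may share reads.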
